A study of Canis lupus familiaris with 12 samples.

Results

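The genes described here encode 6 transcription factors of the epithelial-mesenchymal transition (EMT): SNAI1, TCF3, TCF4, ZEB1, TWIST1 and KLF8. They were chosen as all probes that the probe table names with 1 of these symbols, which gave 11 of 13056 probes, 6 clones, and 6 of 4325 named genes. SNAI1 was read by probes 56 and 13009, TCF3 by 2245 and 10852, TCF4 by 5399 and 7666, ZEB1 by 5409 and 7688, and TWIST1 by 495 and 12554, in each case a pair of spots of a single clone. KLF8 was read by probe 8607 alone. How well these clones match the dog genes or the introduced genes was not tested. By their Entrez IDs, TCF3 and TCF4 are the E protein genes and not the Wnt effectors TCF7L1 and TCF7L2, which have gone by the same names.

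The cells were MDCK, an epithelial line from dog kidney, transfected with E47, Slug or Snail, and the control in all comparisons was MDCK-CMV, the same line with a label that names only CMV. For each transfectant the labels number the samples 1 and 2. A sample went on 1 array with the transfectant in Cy5 and on 1 with it in Cy3, so that 12 arrays hold 4 of E47, 4 of Slug and 4 of Snail. The labels do not say whether a transfectant is 1 clone of cells or a pool, which species the introduced genes came from, how high they were expressed, or whether samples 1 and 2 were separate cultures. The p-values therefore cover the spread between these samples, which may be technical. Values are log2 ratios between transfectant and control, not levels, so that the epithelial identity of the control cells and the order of the genes by abundance cannot be read from them.

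EMT transcription factors switch epithelial cells towards a migratory, mesenchymal state, and in MDCK cells they are known for silencing CDH1, which encodes the adherens junction protein E-cadherin. Snail (SNAI1), Slug (SNAI2) and ZEB1 are zinc finger proteins that bind E-box motifs and repress CDH1 directly. E47 is a splice product of TCF3 and a basic helix-loop-helix E protein, TCF4 encodes the related E protein E2-2, TWIST1 is a helix-loop-helix factor that pairs with E proteins, and KLF8 is a Krüppel-like zinc finger repressor. No probe is named SNAI2, so the gene of Slug was not analysed here.

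The direction of every ratio is assumed. The labels do not name the numerator, and arrays of the same transfectant and the same dye title correlated with a mean r of -0.35 over all probes as deposited (6 pairs, -0.61 to 0.42). The 2 arrays of Snail 2, the 2 arrays of Slug 1 and the E47 2 array titled Cy5 were therefore multiplied by -1, the choice that puts CDH1 below the control. Arrays of one transfectant that were given the same sign had correlated with a mean r of 0.48 (7 pairs) as deposited, and those given opposite signs with -0.51 (11 pairs, none above -0.37). Arrays of different transfectants correlated with a mean r of 0.23 where given the same sign (24 pairs, -0.12 to 0.54). Where given opposite signs, their mean r was -0.25 (24 pairs, -0.52 to -0.10). With these signs the CDH1 clone that differed most lay at a mean log2 ratio of -3.77 ± 0.50 in E47, -4.12 ± 0.26 in Slug and -3.57 ± 0.53 in Snail (SD, n = 2 samples), which is the choice of sign and no finding. Another CDH1 clone lay at -2.74 ± 0.68 in E47, -3.21 ± 0.21 in Slug and -2.88 ± 0.36 in Snail, while the remaining clone stayed close to the control, at 0.29 ± 0.029 in E47, -0.059 ± 0.12 in Slug and 0.23 ± 0.021 in Snail. If the sign of a transfectant is turned, every statement below that a factor was higher in it than in the control becomes the statement that it was lower by the same amount, and CDH1 becomes higher.

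With these signs, SNAI1 was raised in Snail, TCF3 and TWIST1 were raised in E47 and in Slug, TCF4 and ZEB1 were raised in Slug, and KLF8 passed the test in none of the 3 transfectants. A factor is called raised where the mean ratio differed from 0 in limma, a linear model fitted over all genes, at a Benjamini-Hochberg adjusted p under 0.05, two-sided. In E47, 2 of 6 factors were called higher and none lower, where 3.81% of 3966 tested genes were called higher and 1.49% lower. In Slug, 4 of 6 were called higher and none lower, against 12.2% higher and 9.62% lower among 4053 genes. In Snail, 1 of 6 was called higher and none lower, against 2.15% higher and 5.07% lower among 3768 genes. The median log2 ratio of the 6 factors was 0.63 in E47, 1.00 in Slug and 0.39 in Snail, beside medians over all tested genes of 0.0083, 0.025 and -0.053. The 3 comparisons share the control, so that a deviation of the control RNA would enter all of them.

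**Figure D1:**
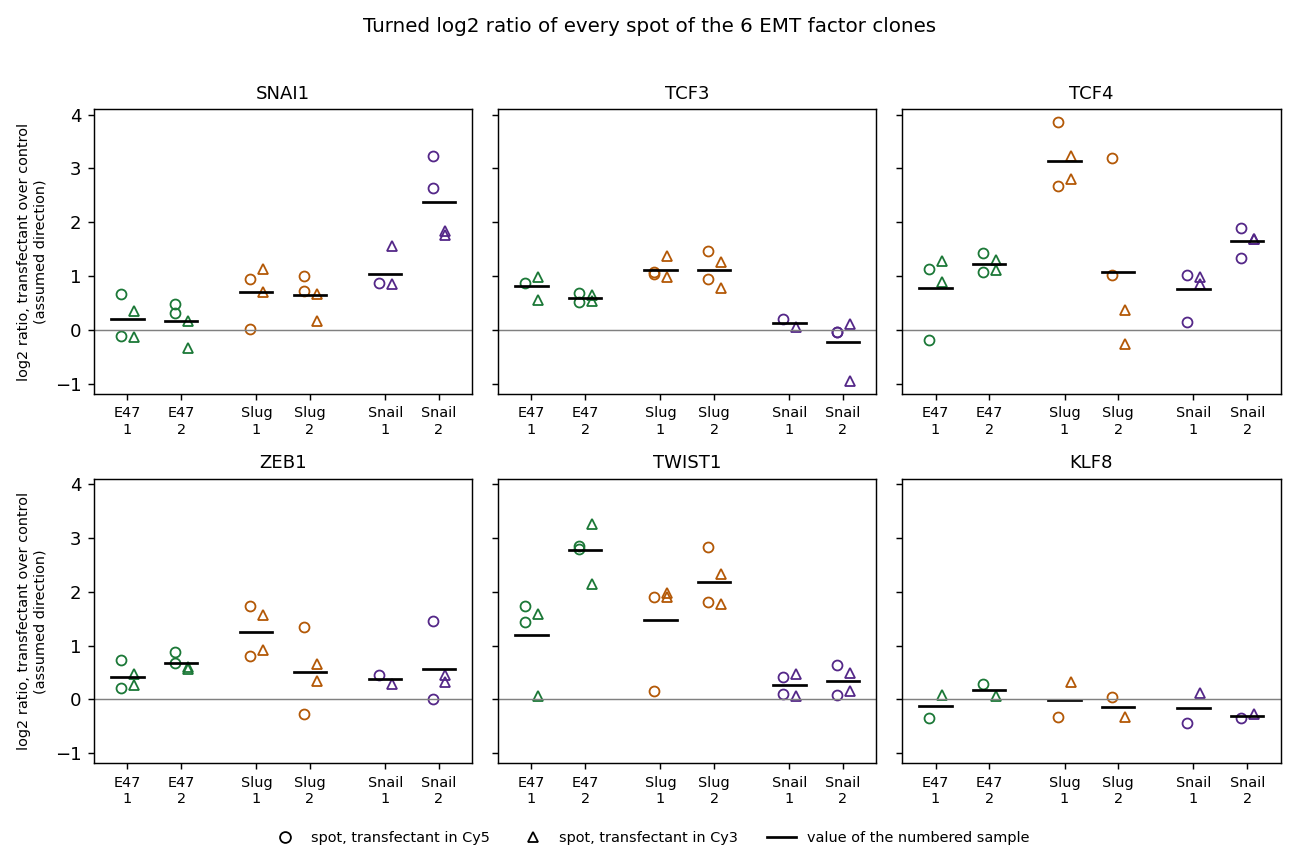
Log2 ratio over the control (vertical axis, assumed direction) of each spot of the 6 clones, by transfectant and numbered sample; circles are arrays with the transfectant in Cy5, triangles arrays with it in Cy3, and black lines the sample values. SNAI1 is highest in the Snail samples (1.04 and 2.37), TWIST1 lies near the control only in Snail, and the TCF4 spots of Slug 2 spread from -0.26 to 3.20.

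SNAI1, the gene of Snail itself, was highest in the Snail transfectant. Its log2 ratio was 0.19 and 0.15 in E47 samples 1 and 2, 0.70 and 0.64 in Slug samples, and 1.04 and 2.37 in Snail samples. On the Snail arrays the clone gave 0.87 and 1.20 for sample 1 and 2.94 and 1.80 for sample 2, so the samples did not overlap; the Snail 1 array titled Cy5 was read from 1 of the 2 spots. No Snail spot lay below 0.85, while the E47 spots lay on both sides of the control, with 5 of 8 above it. The mean in Snail was 1.70 ± 0.95 (SD, n = 2), a 3.26-fold difference from the control (SE 0.26, adjusted p = 0.0092 in limma), and it ranked 11 of 3768 genes from the highest. In Slug the mean was 0.67 ± 0.043 (adjusted p = 0.110) and in E47 0.17 ± 0.028 (adjusted p = 0.783). The shared spread that tests these means includes the Snail samples: with either of them left out, the same Slug mean had an adjusted p of 0.0116, and it was called under 4 of 15 alternatives. Without Snail sample 2 the value in Snail was 1.04 and was no longer called (adjusted p = 0.0573). The labels do not say whether the probe also reads the introduced gene.

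TCF3, the gene that encodes E47, was higher in E47 and in Slug and near the control in Snail. Its log2 ratio was 0.82 and 0.60 in E47 samples 1 and 2, 1.12 and 1.11 in Slug samples, and 0.13 and -0.23 in Snail samples. The arrays of the 3 transfectants did not overlap: they spanned 0.60 to 0.87 in E47, 1.01 to 1.20 in Slug and -0.42 to 0.19 in Snail. The mean in Slug was 1.11 ± 0.0057 (SD, n = 2; 2.16-fold, adjusted p = 0.0021 in limma) and passed under 15 of 15 alternative settings of the analysis. The mean in E47 was 0.71 ± 0.15 (1.63-fold, adjusted p = 0.0257 in limma) and was called under 11 of 14 alternatives. The call was lost without E47 sample 1 (0.60), without E47 sample 2 (0.82) and with the arrays titled Cy3 alone. The Snail value of -0.052 ± 0.25 had an adjusted p of 0.854, and both arrays of Snail sample 1 and the E47 1 array titled Cy5 were read from 1 of the 2 spots. Whether the TCF3 probes also read the introduced E47 gene is not given in the labels.

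TCF4, the second E protein gene, was above the control on 12 of 12 arrays but differed between samples of the same transfectant. Its log2 ratio was 0.78 and 1.23 in E47 samples 1 and 2, 3.15 and 1.08 in Slug samples, and 0.75 and 1.65 in Snail samples. In Slug the arrays of sample 1 gave 3.27 and 3.02 and those of sample 2 gave 2.11 and 0.051, so that sample 2 held both a high and a near-zero array. The Slug mean of 2.11 ± 1.46 (SD, n = 2; 4.32-fold, adjusted p = 0.0125 in limma) ranked 11 of 4053 genes. That call was lost without Slug sample 1, where the value was 1.08 (adjusted p = 0.0757), and with the arrays titled Cy3 alone (1.54, adjusted p = 0.125); without Slug sample 2 the value was 3.15. In E47 the mean was 1.00 ± 0.32 (adjusted p = 0.238) and in Snail 1.20 ± 0.64 (adjusted p = 0.131), and neither passed. The shared spread that tests these means includes the Slug samples: with either Slug sample left out, the same means had an adjusted p of 0.0344 in E47 and 0.0157 in Snail.

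ZEB1, a zinc finger repressor that binds E-boxes, had smaller ratios. Its log2 ratio was 0.42 and 0.68 in E47 samples 1 and 2, 1.26 and 0.52 in Slug samples, and 0.37 and 0.56 in Snail samples. All 12 arrays were above the control, and Slug sample 1 stood above the other samples, while Slug sample 2 lay within the range of E47 and Snail. Probe 7688 read 1.73 and 1.57 on the arrays of Slug sample 1 and -0.27 and 0.66 on those of Slug sample 2. Probe 5409 read 0.81 and 0.93 for Slug sample 1 and 1.34 and 0.34 for Slug sample 2. Only 1 of the 2 spots thus set the Slug samples apart. The Slug mean of 0.89 ± 0.53 (SD, n = 2; 1.85-fold, adjusted p = 0.0137 in limma) was called, but not without Slug sample 1 (0.52, adjusted p = 0.142). The means of 0.55 ± 0.18 in E47 (adjusted p = 0.140) and 0.47 ± 0.13 in Snail (adjusted p = 0.168) did not pass. Snail sample 1 was read from 1 of the 2 ZEB1 spots.

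TWIST1, the helix-loop-helix factor known from mesoderm formation, was high in E47 and Slug and close to the control in Snail. Its log2 ratio was 1.21 and 2.77 in E47 samples 1 and 2, 1.48 and 2.19 in Slug samples, and 0.26 and 0.34 in Snail samples. Every E47 and Slug array (0.83 to 2.83 in E47, 1.03 to 2.32 in Slug) lay above every Snail array (0.26 to 0.36). The mean was 1.99 ± 1.11 in E47 (SD, n = 2; 3.97-fold, adjusted p = 0.0151 in limma), 1.84 ± 0.50 in Slug (3.57-fold, adjusted p = 0.0077) and 0.30 ± 0.056 in Snail (95% interval -0.45 to 1.06, adjusted p = 0.635). It ranked 12 of 3966 genes in E47 and 18 of 4053 in Slug. The E47 call was lost without E47 sample 2 (1.21, adjusted p = 0.119) and with the arrays titled Cy3 alone (1.77, adjusted p = 0.0661), and the Slug call without Slug sample 2 (1.48, adjusted p = 0.0599).

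KLF8 gave no call. Its single spot had log2 ratios of -0.13 and 0.17 in E47 samples 1 and 2, -0.0027 and -0.14 in Slug samples, and -0.16 and -0.31 in Snail samples, and arrays fell on both sides of 0 in each transfectant. The 95% intervals of the limma means were -0.28 to 0.32 in E47, -0.37 to 0.23 in Slug and -0.53 to 0.068 in Snail, which leave room for changes of those sizes.

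**Figure D2:**
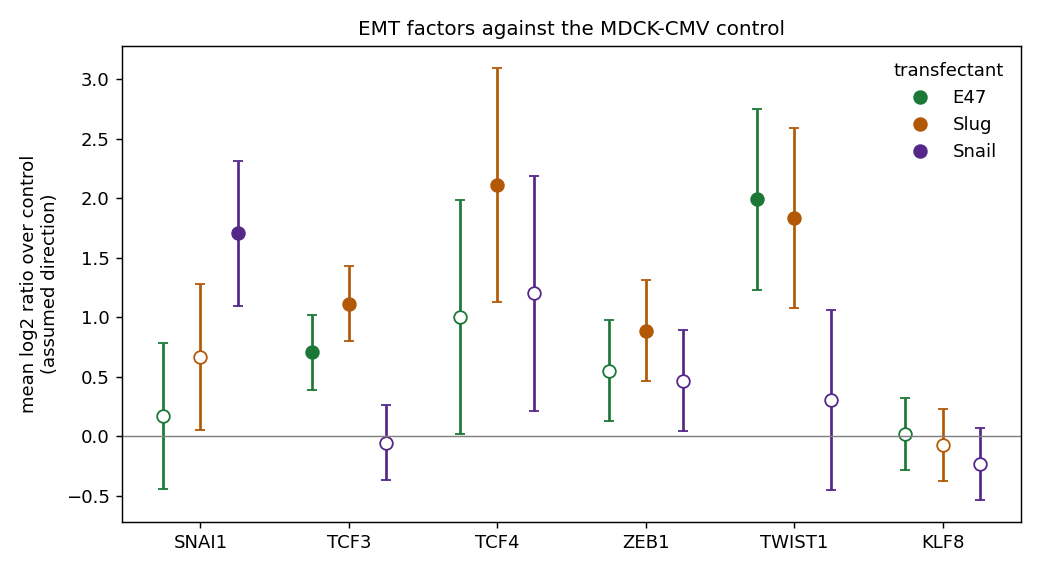
Mean log2 ratio over the control (vertical axis, assumed direction) of each factor in E47, Slug and Snail, with 95% intervals from limma; filled points have an adjusted p under 0.05, and open points do not. TCF3 is filled in E47 (0.71) and Slug (1.11), TWIST1 in E47 (1.99) and Slug (1.84), TCF4 and ZEB1 in Slug, SNAI1 in Snail (1.70), and KLF8 nowhere.

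Differences between the transfectants were tested in the same fit. For E47 against Slug, no factor was called by limma, where 0.786% of 3816 genes were called in either direction; at an unadjusted p under 0.05 it was 0 of 6 factors, beside 16.2% of the genes. The closest was TCF3, with 0.71 in E47 and 1.11 in Slug, a difference of -0.41 (95% interval -0.85 to 0.037, adjusted p = 0.348). TWIST1 differed by 0.15 (-0.92 to 1.22) and TCF4 by -1.11 (-2.50 to 0.28), intervals wide enough to hold differences of more than 2-fold.

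For E47 against Snail, no factor was called either, where 2.57% of 3617 genes were called in either direction. At an unadjusted p under 0.05, 3 of 6 factors differed, beside 20% of the genes. SNAI1 was at 0.17 in E47 and 1.70 in Snail, a difference of -1.53 (95% interval -2.39 to -0.67, adjusted p = 0.0709) that ranked 3615 of 3617 genes from the highest. TWIST1 was at 1.99 in E47 and 0.30 in Snail, a difference of 1.68 (0.62 to 2.75, adjusted p = 0.0951), and TCF3 at 0.71 in E47 and -0.052 in Snail, a difference of 0.76 (0.32 to 1.20, adjusted p = 0.0773). None of these 3 passed the threshold over all genes. Their arrays did not overlap between the 2 transfectants, and the share of all genes for which this holds was not counted.

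For Slug against Snail, 1 of 6 factors was called higher, where 9.14% of 3675 genes were called higher. TCF3 was at 1.11 in Slug and -0.052 in Snail, a difference of 1.17 ± 0.19 (SE; 95% interval 0.72 to 1.61; 2.24-fold, adjusted p = 0.0122 in limma). Without Snail sample 2 the difference was 0.99 and was not called (adjusted p = 0.0571). TWIST1, at 1.84 in Slug and 0.30 in Snail, differed by 1.53 (0.46 to 2.60, adjusted p = 0.0660), and SNAI1, at 0.67 in Slug and 1.70 in Snail, by -1.04 (-1.90 to -0.17, adjusted p = 0.105). TCF4 and ZEB1 differed by 0.91 (-0.48 to 2.30) and 0.42 (-0.18 to 1.02). For TCF4 the sign turned without Slug sample 1, to -0.12.

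By mean log2 ratio, the transfectants ran Snail, Slug, E47 for SNAI1, Slug, E47, Snail for TCF3, Slug, Snail, E47 for TCF4, Slug, E47, Snail for ZEB1, E47, Slug, Snail for TWIST1 and E47, Slug, Snail for KLF8. Slug and Snail for TCF3, the ends of its order, were the single pair that passed the test; no neighbours in these orders did.

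**Figure D3:**
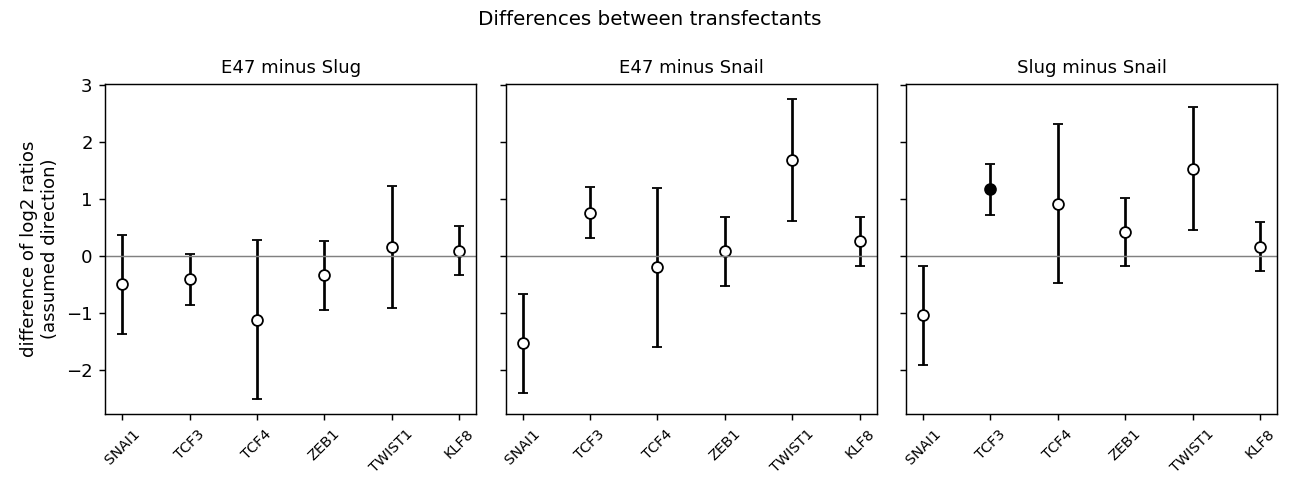
Difference of mean log2 ratios (vertical axis, assumed direction) for E47 minus Slug, E47 minus Snail and Slug minus Snail, with 95% intervals from limma; the filled point has an adjusted p under 0.05. Only TCF3 in Slug minus Snail (1.17) is filled, and the TCF4 intervals are the widest of the 6 factors.

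These differences depend on the assumed signs in another way than the ratios to the control. If the sign of 1 transfectant of a pair is turned, the difference becomes the sum of the 2 ratios. For E47 and Slug that sum was 1.82 for TCF3, 3.11 for TCF4, 1.44 for ZEB1 and 3.82 for TWIST1, all past the threshold in limma (highest adjusted p = 0.0088), and 0.84 for SNAI1 and -0.050 for KLF8, which were not. For E47 and Snail it was 1.88 for SNAI1, 1.02 for ZEB1 and 2.29 for TWIST1 among those past it (highest adjusted p = 0.0470), while TCF3 (0.65), TCF4 (2.20) and KLF8 (-0.21) were not. For Slug and Snail it was 2.37 for SNAI1, 1.06 for TCF3, 3.31 for TCF4, 1.36 for ZEB1 and 2.14 for TWIST1, all past it (highest adjusted p = 0.0175), and -0.30 for KLF8, which was not. TCF3 differed between Slug and Snail with either sign. How many of all genes passed the threshold for such sums was not counted, so the factors past it have no share to be set beside.

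The 2 spots of a clone show how far a single reading can be relied on. The 5 factors with 2 spots gave 54 pairs of readings on the same array, with a median absolute difference of 0.46 on the log2 scale, against 0.28 over the 2093 clones of the table with 2 spots. The spots lay more than 1 apart in 10 of these 54 pairs (18.5%), against 5.97% over all such clones. The widest gap was TCF4 on the Slug 2 array titled Cy5, with 3.20 and 1.01. TWIST1 read 1.90 and 0.15 on the Slug 1 array titled Cy5 and 0.070 and 1.59 on the E47 1 array titled Cy3, and ZEB1 read 1.34 and -0.27 on the Slug 2 array titled Cy5. In each of these cases the sample with the low spot had the lower value of the 2 samples of its transfectant, and the part of single spots in those differences was not tested. TCF3 had the closest spots of the 5, with a median difference of 0.39. For SNAI1 in Snail and TWIST1 in E47, no spot of sample 1 reached the lowest spot of sample 2.

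**Figure D4:**
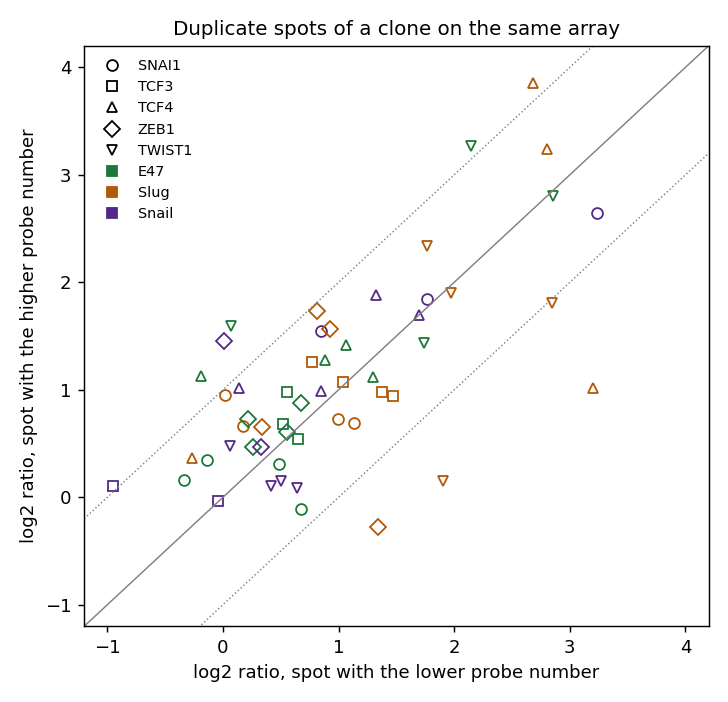
Log2 ratio of the spot with the higher probe number against that of the spot with the lower probe number on the same array, for the 5 factors with 2 spots; shapes are genes, colours transfectants, the solid line marks equal readings and the dotted lines a gap of 1. The points outside the dotted lines are the 10 of 54 pairs with a gap of more than 1, and most of them are TCF4, TWIST1 and ZEB1.

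Across the 12 turned arrays, TCF4 and ZEB1 followed each other more closely than other pairs of factors, with r = 0.80. Their probe numbers lie close together (5399 and 5409, 7666 and 7688). Where both genes had 2 spots, the gaps from lower to higher probe number ran the same way on most arrays. The Slug 2 array titled Cy5 gave 3.20 and 1.01 for TCF4 and 1.34 and -0.27 for ZEB1. The gaps ran opposite ways on the E47 2 array titled Cy3, and the TCF4 spots were equal on the Snail 2 array titled Cy3. Whether position on the slide had a part in the r of TCF4 and ZEB1 was not tested. ZEB1 ranked 19 of 3536 genes by likeness to TCF4, and TCF4 ranked 15 by likeness to ZEB1. TCF3 and TWIST1 had r = 0.65, and SNAI1 ran opposite to TCF3 (r = -0.63) and TWIST1 (r = -0.58). These are descriptions without a test, since the 12 arrays come from 6 samples in 3 transfectants and share the control.

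Of the genes with a value on all 12 arrays, those most like SNAI1 were PRSS23, a serine protease (r = 0.93), TRMT1, a tRNA methyltransferase (0.92), and AXL, a receptor tyrosine kinase (0.90), and the least like was HS3ST1 (-0.90), a heparan sulfate sulfotransferase. TCF3 was most like CTNNA1, the alpha-catenin of adherens junctions (0.96), PLAGL1, a zinc finger factor (0.96), and RAB32, a small GTPase (0.95), and least like COX7A2, a cytochrome oxidase subunit (-0.96). CTNNA1 shows what such a likeness holds: its mean log2 ratio was -0.24 in E47, -0.0078 in Slug and -0.86 in Snail, so it shared the order of TCF3 but lay at or below the control. TCF4 was most like COL15A1, a basement membrane collagen (0.93), BTK, a kinase of B cells (0.93), and FBRSL1 (0.92), and least like STAM2 (-0.91). ZEB1 was most like COL15A1 (0.88), ACTN1, an actin cross-linker (0.88), and BTK (0.87), so that COL15A1 and BTK stand in both lists, and least like PRIM2, a DNA primase subunit (-0.93). COL15A1 averaged 0.91 in E47, 2.18 in Slug and 0.38 in Snail, and its Slug value was called (adjusted p = 0.0234 in limma). TWIST1 was most like CSGALNACT1 (0.93), MFN2, a mitochondrial fusion protein (0.92), and MAP2K4, a kinase upstream of JNK (0.91), and least like NEDD8 (-0.91). MAP2K4 was called in E47 (0.77, adjusted p = 0.0438) and Slug (0.85, adjusted p = 0.0126) and lay at -0.081 in Snail. KLF8 was most like LTBR (0.85), NIBAN2 (0.77) and LIG3 (0.76) and least like PRDX2 (-0.86).

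Of 23 listed partners and inhibitors of helix-loop-helix factors, 8 were tested in E47, 9 in Slug and 8 in Snail. Of those tested, 6 were higher in E47, 3 in Slug and 0 in Snail, and none was lower. At an unadjusted p under 0.05, in either direction, it was 6 of 8 in E47, 6 of 9 in Slug and 1 of 8 in Snail. The share of all genes at that unadjusted threshold was not counted for the comparisons with the control, here or for the lists below. Over all tested genes, 3.81% were called higher in E47, 12.2% in Slug and 2.15% in Snail. The median log2 ratio of the listed genes tested was 1.21 in E47, 0.32 in Slug and 0.03 in Snail, beside 0.0083, 0.025 and -0.053 over all tested genes. BHLHE40, a helix-loop-helix repressor, rose by 1.36 in E47 (adjusted p = 0.0070 in limma) and 2.36 in Slug (adjusted p = 5.24e-04) and was at 0.0071 in Snail. LDB2, a cofactor that bridges LIM and E protein complexes, rose by 1.52 in E47 (adjusted p = 0.0064) and 2.17 in Slug (adjusted p = 8.08e-04) and was at 0.56 in Snail (adjusted p = 0.128). ID3 and ID4, which sequester E proteins, rose by 1.56 and 1.49 in E47; ID3 also rose in Slug (0.84, adjusted p = 0.0174), where ID4 was at 0.32 (adjusted p = 0.204), and in Snail they were at 0.23 and 0.052. Between transfectants, BHLHE40 differed for E47 against Snail (1.35, adjusted p = 0.0402 in limma) and for Slug against Snail (2.36, adjusted p = 0.0047), but did not pass for E47 against Slug (-1.01, adjusted p = 0.119). LDB2 differed for Slug against Snail (1.61, adjusted p = 0.0136) and did not pass for E47 against Snail (0.96, adjusted p = 0.107) or E47 against Slug (-0.65, adjusted p = 0.302). ID3 and ID4 differed for E47 against Snail (1.33, adjusted p = 0.0468, and 1.44, adjusted p = 0.0293) and passed in neither of the other pairs, where the lowest adjusted p was 0.0845, for ID4 in E47 against Slug (1.17). ID1 and ID2, named here after their values were seen, were also called in E47 (0.86, adjusted p = 0.0298 in limma, and 1.06, adjusted p = 0.0146). In Slug they were at 0.29 (adjusted p = 0.261) and -0.41 (adjusted p = 0.127). ID2 differed for E47 against Slug (1.47, adjusted p = 0.0473 in limma).

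Among 27 listed corepressors and cofactors of these factors, none of 12 tested was called in E47, 5 of 11 were higher and 1 lower in Slug, and 1 of 11 was lower in Snail. Over all tested genes 12.2% were called higher and 9.62% lower in Slug, 5.07% lower in Snail, and 3.81% higher and 1.49% lower in E47. EZH2, the methyltransferase of the Polycomb complex, rose by 0.98 in Slug (adjusted p = 0.0039 in limma), EP300, an acetyltransferase and E protein coactivator, by 1.12 (adjusted p = 0.0016), and TLE1, a corepressor, by 1.04 (adjusted p = 0.0097). HDAC3, a histone deacetylase, was the gene called lower in both Slug (-0.45, adjusted p = 0.0494) and Snail (-0.9998, adjusted p = 0.0056). At an unadjusted p under 0.05 it was 3 of 12 in E47, 7 of 11 in Slug and 4 of 11 in Snail. Among those in E47 was EP300, at 0.48 (adjusted p = 0.0664 in limma).

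Of 30 upstream signals, 1 of 22 tested was higher in E47, and 4 of 22 were higher and 2 lower in Slug. None of 21 was called in Snail. These counts are near those over all tested genes, of which 3.81% were called higher and 1.49% lower in E47, 12.2% higher and 9.62% lower in Slug, and 2.15% higher and 5.07% lower in Snail. At an unadjusted p under 0.05 it was 8 of 22 in E47, 10 of 22 in Slug and 3 of 21 in Snail. EGR1, an immediate early factor, rose in E47 (1.01, adjusted p = 0.0111 in limma) and Slug (1.07, adjusted p = 0.0033) and was at -0.60 in Snail (adjusted p = 0.0557). FGFR1, a growth factor receptor, and HGF, the scatter factor that loosens MDCK colonies, rose in Slug by 1.48 (adjusted p = 8.08e-04) and 0.91 (adjusted p = 0.0052), and TGFBR1, the type I receptor for TGF-beta, fell there by 0.59 (adjusted p = 0.0248).

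Of 30 known targets, 4 of 18 tested were higher and 2 lower in E47, 5 of 17 higher and 4 lower in Slug, and 3 of 16 higher and 3 lower in Snail. The shares over all tested genes were 3.81% higher and 1.49% lower in E47, 12.2% and 9.62% in Slug, and 2.15% and 5.07% in Snail. CDH1, which set the sign, is one of the lower ones in each. JUP, the junction protein plakoglobin, named here after its values were seen, was among those called higher in Slug (0.82, adjusted p = 0.0184 in limma), and was at 0.13 in E47 and -0.68 in Snail (adjusted p = 0.0700). DSP, the desmosome protein desmoplakin, was at -0.67 in E47, -1.67 in Slug and -2.51 in Snail, and FN1, fibronectin, at 1.13, 2.00 and 1.01, all called in limma (highest adjusted p = 0.0232). COL1A2, a chain of type I collagen, was highest in E47 (3.02), with 1.60 in Slug and 1.99 in Snail. Other listed targets did not pass: CLDN1, KRT8, KRT18, EPCAM, CDH2, MMP2 and MMP9 were tested in all 3 transfectants and called in none. VIM was tested in E47 alone, at -0.28 (adjusted p = 0.377 in limma). The remaining lists were small: among other Krüppel-like and Sp factors 4 of 15 were tested, with none called in any transfectant, and of 19 other EMT factors only ETS2 was tested, at 0.51 in E47, 0.26 in Slug and 0.43 in Snail, not called in any. Of the epithelial markers, which include CDH1 and DSP, 3 of 6 tested were lower in E47, 3 of 7 in Slug and 3 of 6 in Snail, and none was higher; of the fibroblast markers 2 of 5 were higher in E47, 1 of 4 in Slug and 2 of 4 in Snail, with 1 lower there. Over all tested genes the shares called lower were 1.49%, 9.62% and 5.07% in E47, Slug and Snail, and those called higher 3.81%, 12.2% and 2.15%. Of the leukocyte markers only PTPRC was tested, at 0.15 in E47, -0.66 in Slug (adjusted p = 0.0130 in limma) and -0.47 in Snail, and of the endothelial ones TEK alone was called, in Slug (0.62, adjusted p = 0.0361); their part in the results was not tested. At an unadjusted p under 0.05, SP1 alone of the Krüppel-like, Sp and other EMT factors passed, in Slug (-0.44, adjusted p = 0.128).

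**Figure D5:**
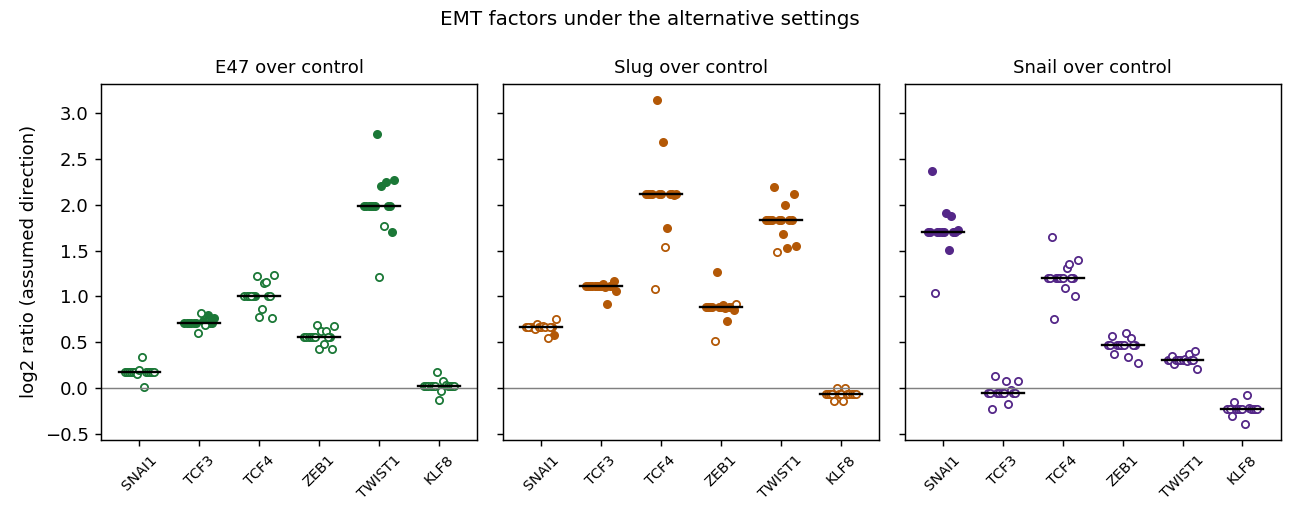
Log2 ratio over the control (vertical axis, assumed direction) of each factor under each alternative setting, by transfectant; filled points have an adjusted p under 0.05, open points do not, and black lines mark the values given above. TCF3 and TWIST1 in Slug stay between 0.92 and 1.16 and between 1.48 and 2.19, while TCF4 in Slug spreads from 1.08 to 3.15.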

How the data were processed

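The authors deposited 1 table of log2 ratios of the 2 channels for 13056 probes on 12 arrays; that the values are log2 was checked on the deposited numbers (100.00% of antilogs below -0.5 fell on whole thousandths, within 0.00006). Array medians lay between -0.0634 and 0.0594; for scanner, background correction and normalization, the method is not given in the sources used here. Arrays held 10654 to 12982 values; they carry no signal over background, and precision is limited by how few arrays there are. Ratios were turned as described above, spots averaged to clones and clones to genes (8047 probes with 1 symbol, 276 with several, 4733 with none), and both arrays of a numbered sample averaged to 1 value. Where 1 of 2 spots was empty, the other was used.

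limma 3.58.1 in R 4.3.3 fitted all 3 transfectants together (prior degrees of freedom 4.85, prior SD 0.203), testing means against 0 and pairs of means, over genes with both samples in each group involved. The ratio against 0 leaves out the control's own spread. Intervals are 95%. Alternatives were single samples left out, a replicate block, clones kept apart, 1 dye, rescaled arrays, complete genes, single arrays with a random sample block and, added after seeing the data, 1 spot per clone. All 6 factors were named; of each gene list, up to 4 called genes with the lowest p, and for each factor the 3 most and 1 least alike genes. Factors and lists were chosen with earlier results of these data known. No sequence of the clones was used here.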

Additional observations from a re-analysis of the deposited data

Results flagged for a closer look

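TCF3 was flagged because its response differed between transfectants by a direct test. Its log2 ratio was 1.11 in Slug and -0.052 in Snail, a difference of 1.17 (adjusted p = 0.0122 in limma). That difference ranked 113 of 3675 genes from the highest, and 9.14% of these genes were called higher, beside 1 of 6 factors. On the arrays, 4 of 4 Slug values lay above all 4 Snail values, and the share of all genes with this was not counted.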

How the results depend on the processing

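The 6 factors in 6 comparisons gave 529 values under 15 alternative settings, of which 477 kept their sign and their side of the threshold, 24 kept the sign and newly passed, 12 kept it and no longer passed, and 16 changed sign. No factor that was called against the control changed sign under any of these settings. Beyond the changes stated with the results, the causes of the shifts below were not tested.

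Fits with 1 sample left out, where the lone sample is assumed to vary like the others, called 0 to 3 of the factors in E47, 2 to 5 in Slug and 0 to 2 in Snail, and 0 in E47 against Slug, 0 to 1 in E47 against Snail and 0 to 2 in Slug against Snail. Over all genes they called 26 to 275 in E47 (210 with all samples), 339 to 891 in Slug (885) and 34 to 345 in Snail (272), and 8 to 27 in E47 against Slug (30), 3 to 137 in E47 against Snail (93) and 138 to 389 in Slug against Snail (486). The uncalled log2 ratios that changed sign in them ran from -0.13 to 0.17 for KLF8 in E47 and from -0.23 to 0.13 for TCF3 in Snail. The uncalled differences that did so ran from -0.71 to 0.036 for ZEB1, -0.63 to 0.94 for TWIST1 and -0.057 to 0.24 for KLF8 in E47 against Slug, from -0.65 to 0.25 for TCF4 and -0.049 to 0.21 for ZEB1 in E47 against Snail, and from -0.12 to 1.95 for TCF4 in Slug against Snail.

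The numbers 1 and 2 do not pair the samples by the labels, and deviations of same-numbered samples correlated with r = -0.056 for E47 and Slug, 0.23 for E47 and Snail and 0.0245 for Slug and Snail. With the replicate number as a block, TWIST1 was newly called in E47 against Snail and in Slug against Snail (adjusted p = 0.0467 and 0.0271 in limma). The block changed no other factor's call. Over all genes it called 231 in E47, 903 in Slug and 294 in Snail against the control. The share of all genes that it called in the pairs of transfectants is not given here.

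With the arrays titled Cy5 alone, 576 genes were called in Slug, 39 in E47 against Snail and 265 in Slug against Snail, and TCF3 in Snail (0.077) and KLF8 in E47 (-0.030) changed sign. With the arrays titled Cy3 alone, 42 genes were called in E47, 372 in Slug, 56 in Snail, 4 in E47 against Slug, 1 in E47 against Snail and 88 in Slug against Snail; 0 factors were called in E47, and TWIST1 in E47 against Slug was at -0.23. With all arrays centred and scaled to 1 spread, no factor's call changed, while 440 genes were called in Slug, 16 in E47 against Slug, 153 in E47 against Snail (80.4% of them higher, in place of 93.5%) and 271 in Slug against Snail. With 12 arrays fitted singly and the sample as a random block, 435 genes were called in E47, 579 in Snail, 185 in E47 against Slug, 377 in E47 against Snail and 824 in Slug against Snail, with 3 factors each in Snail, E47 against Snail and Slug against Snail; the estimated correlation within a sample was only 0.0042, so this fit treats arrays almost as independent samples.

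With the spot of the lowest probe number alone, chosen after seeing the data, 93 genes were called in E47, 9 in E47 against Slug and 25 in E47 against Snail; of the factors, 1 of 5 tested was called in E47, where TCF3 had no complete samples, 0 of 4 tested in Snail and 0 of 4 in Slug against Snail, in both of which SNAI1 and TCF3 had no complete samples, and TWIST1 in E47 against Slug was at -0.42. With the spot of the highest number alone, ZEB1 in Slug was no longer called (0.92, adjusted p = 0.0931) and TCF3 in Snail was at 0.08. Clones kept apart and complete genes alone changed no factor's call. The values carry no signal over background, so which dim spots limit these ratios was not analysed here.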

Other observations

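The samples of Slug differed in more than TCF4 and 1 of the 2 ZEB1 spots. SPARC, a secreted matrix protein, was singled out after its values were seen. Its log2 ratio was 4.17 in Slug sample 1 and -0.67 in Slug sample 2. TCF4 (3.15 and 1.08) and ZEB1 (1.26 and 0.52) had the same order. TWIST1 ran the other way (1.48 and 2.19), and TCF3 did not differ (1.12 and 1.11). Other listed genes also ran the other way, among them EPCAM (-2.78 and -0.96), KLF4 (-1.05 and 0.73) and DSG2 (-1.68 and -0.68). Their gaps were not particular to Slug. EPCAM was at -0.36 and -2.69 in E47 samples 1 and 2, and at -0.18 and -3.00 in Snail samples 1 and 2. In Snail, KLF4 was at -0.29 and -1.26 and DSG2 at -0.60 and -1.87. In E47, KLF4 was at 0.16 and 0.29 and DSG2 at -0.46 and -1.06.

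CCND1, cyclin D1, was singled out after its values were seen. It was called higher in E47 (0.73, adjusted p = 0.0157 in limma) and Slug (0.69, adjusted p = 0.0073) and lower in Snail (-0.80, adjusted p = 0.0088). Between transfectants it differed for E47 against Snail (1.52, adjusted p = 0.0132) and for Slug against Snail (1.49, adjusted p = 0.0050), while E47 against Slug did not pass (0.037, adjusted p = 0.942). With the sign of Snail alone turned, CCND1 would be higher in all 3 transfectants, while CDH1 would be higher in Snail and lower in E47 and Slug.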
